A study of Homo sapiens with 21 samples.

Results

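The genes described are 10 that encode matrix proteases and their inhibitors: the metalloproteinases MMP1, MMP2, MMP10, MMP13 and MMP14, the tissue inhibitors TIMP1, TIMP2 and TIMP3, urokinase (PLAU) and its receptor (PLAUR). They were chosen by symbol, are 10 of the 20970 genes listed in 4 expression tables, and were followed through 21 RNA-seq libraries from human cancer cell lines. FADU is a head and neck cancer line and BFTC909 a cancer line of the upper urinary tract. In each line, cells carrying a scrambled short hairpin (Scr-si) were kept in normoxia (18% O2) or hypoxia (1% O2) for 18 h, and cells carrying a hairpin against METTL4 (METTL4-si), a DNA and RNA adenine methyltransferase, were kept in hypoxia. FADU clones stably carrying a control vector, METTL4 (METTL4-OE) or the long noncoding RNA RP11-390F4.3 (RP11-390F4.3-OE) were kept in normoxia. Each of these 9 groups had 2 libraries. A last set, all in hypoxia, held a single FADU CRISPR control library and 2 mutant clones, each grown from a single cell and sequenced as 1 library, whose METTL4 catalytic site had been altered by prime editing. The hairpins were delivered by lentivirus and the overexpressing cells were transfected clones, so that a group may stand for 1 clone, and no label says that the 2 libraries of a group came from separate cultures. P-values therefore measure only the spread between these libraries, which may be technical.

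Matrix metalloproteinases are zinc enzymes, made as inactive precursors, that cut the proteins of the extracellular matrix, and the TIMP proteins bind and block their active sites. Urokinase, held at the cell surface by its receptor, turns plasminogen into plasmin, which degrades fibrin and can activate several metalloproteinase precursors. These genes are widely studied in cancer cells because invasion through a basement membrane needs proteolysis close to the cell.

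On GRCh37 with the GENCODE annotation, MMP10 (ENSG00000166670, chr11:102641233-102651359), MMP1 (ENSG00000196611, chr11:102660132-102668891) and MMP13 (ENSG00000137745, chr11:102813724-102826461) lie on the minus strand in a cluster of 9 MMP genes spanning 435.2 kb. MMP2 is at chr16:55423612-55540603, MMP14 at chr14:23305769-23318250, TIMP1 at chrX:47441807-47446188, TIMP2 at chr17:76849059-76921469, TIMP3 at chr22:33197691-33259028, PLAU at chr10:75668935-75677254 and PLAUR at chr19:44150247-44174699. MMP1 and MMP10 lie within the pseudogene WTAPP1, TIMP1 within SYN1, TIMP3 within SYN3 and most of PLAU within C10orf55, each on the opposite strand, and MMP2 is crossed by the antisense gene MMP2-AS1. The library kit kept strand, but the strand setting used for counting is not given in the sources used here, so reads from such partners cannot be told apart.

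RefSeq promoter sequence (GRCh38.p14) was at hand for 6 of the 10 genes. MMP1, MMP2, MMP13 and TIMP2 had no entry. The 250 bases before the start site are printed for MMP10 (chr11:102780629-102780878, minus strand), TIMP1 (chrX:47582186-47582435, plus strand) and PLAUR (chr19:43670170-43670419, minus strand), which rose together in both overexpression groups, and for the second of 2 PLAU starts (chr10:73910882-73911131, plus strand), which fell in hypoxia in both lines. Capitals mark 2 kinds of motif, searched on both strands: TGANTCA, recognised by AP-1 factors, and ACGTG with its variant GCGTG, the core of the hypoxia response element bound by HIF. The 2 kinds do not overlap in these promoters.
MMP10: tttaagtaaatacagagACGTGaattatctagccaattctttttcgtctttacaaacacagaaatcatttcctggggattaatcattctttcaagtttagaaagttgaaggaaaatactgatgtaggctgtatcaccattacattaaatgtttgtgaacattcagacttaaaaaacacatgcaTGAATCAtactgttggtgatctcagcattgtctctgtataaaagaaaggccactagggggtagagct
TIMP1: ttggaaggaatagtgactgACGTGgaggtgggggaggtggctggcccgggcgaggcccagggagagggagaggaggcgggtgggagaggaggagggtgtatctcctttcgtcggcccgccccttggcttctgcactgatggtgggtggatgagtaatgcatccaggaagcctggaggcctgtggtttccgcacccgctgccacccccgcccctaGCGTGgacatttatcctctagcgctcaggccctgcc
PLAUR: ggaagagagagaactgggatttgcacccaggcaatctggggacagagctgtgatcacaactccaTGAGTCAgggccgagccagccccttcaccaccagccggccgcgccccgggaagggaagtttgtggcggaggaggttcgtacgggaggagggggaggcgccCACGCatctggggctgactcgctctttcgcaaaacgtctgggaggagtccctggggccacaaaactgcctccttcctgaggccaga
PLAU: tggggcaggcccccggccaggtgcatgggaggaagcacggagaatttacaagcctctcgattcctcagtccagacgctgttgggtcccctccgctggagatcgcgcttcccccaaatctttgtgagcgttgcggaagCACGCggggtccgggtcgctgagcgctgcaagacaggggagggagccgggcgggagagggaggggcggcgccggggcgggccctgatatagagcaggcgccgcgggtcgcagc
MMP10 held 1 TGANTCA match, 67 to 61 bases before the start, and 1 ACGTG match. PLAUR held 1 TGANTCA match, 186 to 180 bases before the start, and 1 GCGTG match on the other strand, where the line shows CACGC. TIMP1 held 1 ACGTG and 1 GCGTG match, and the second PLAU start 1 GCGTG match, again on the other strand. The first PLAU start (chr10:73910360-73910609), which is not printed, held 0 matches of either kind. Over all 35116 promoters of this length, 6.57% held TGANTCA and 43.2% held either hypoxia core. A match describes the letters only, and the hypoxia core was present in a large part of all promoters.

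Read depth and the checks of the labels were as follows. The libraries held 17.8 to 25.4 M reads on genes, and each listed member had at least 39 reads in each of the 18 replicated libraries. The lowest, 39 and 40 reads, were those of MMP2 in the overexpression control, where replicates can lie closer together than counting error. CA9, a classical HIF target, was at 2.33 and 2.55 CPM after TMM normalisation (TMM CPM, reads of a gene relative to its library's scaled total) in FADU normoxia, at 31.0 and 37.8 in hypoxia and at 1.87 and 2.22 in the hypoxic libraries labelled METTL4-si, which differed from hypoxic Scr-si by -3.53 and from normoxia by -0.17 on the log2 scale (limma adjusted p = 5.5e-05 and 0.40). METTL4 itself was at 26.6 and 25.3 TMM CPM in hypoxic FADU Scr-si libraries and at 24.2 and 27.1 in the libraries labelled METTL4-si (limma adjusted p = 0.90), so its RNA does not check that label. In BFTC909 it was at 19.0 and 15.6 in Scr-si and at 14.4 and 12.2 in METTL4-si (adjusted p = 0.072). METTL4 stood at 35.4 and 32.7 in the overexpression control and at 158 and 139 in METTL4-OE. RP11-390F4.3 was not matched by that name in the tables, so the RP11-390F4.3-OE label was not checked. 2 of the FADU knockdown libraries stood apart. Of 10 breast luminal markers, 6 were listed and summed to 532 TMM CPM in METTL4-si replicate 1 and to 104 in normoxia replicate 1, against 5.67 to 11.3 in the other 4 FADU knockdown libraries. Of 10 fibroblast markers, 2 were listed and summed to 116 and 25.6 in those 2 libraries, against 4.40 to 5.87. In BFTC909, 1 of 6 urothelial markers was listed, at 128 in METTL4-si replicate 2 and at 0.573 to 0.964 in the other 5 libraries. In the FADU knockdown libraries 4 of these 6 were listed and summed to 308 to 810. Of 10 breast luminal markers, 2 were listed in BFTC909, and both reached 1 TMM CPM in METTL4-si replicate 2 alone. Their sum there was 412, and ran from 304 to 1017 in the other 5 libraries. The urothelial and breast luminal lists share GATA3. In BFTC909, 8 of 10 fibroblast markers were listed. They summed to 1270 and 1371 in BFTC909 normoxia, 4746 and 4956 in hypoxia and 2707 and 2892 in METTL4-si. In the overexpression set, 4 of 10 breast luminal markers were listed and summed to 29.9 in RP11-390F4.3-OE replicate 2, against 5.77 to 7.77 in the other 5 libraries. The labelled urothelial origin of BFTC909 was thus not visible in these markers.

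Which of the 10 genes were expressed most was read from TMM CPM per kilobase of merged exons. In FADU normoxia the order was PLAU (79.2), MMP14 (23.2), TIMP1 (18.4), MMP1 (17.6), MMP13 (8.65), MMP10 (8.30), PLAUR (1.54), TIMP3 (0.812), TIMP2 (0.771) and MMP2 (0.542), as means of 2 libraries. Neighbours whose libraries overlapped were TIMP1 with MMP1, MMP13 with MMP10, and TIMP3 with TIMP2. In BFTC909 normoxia the order was PLAU (192), MMP14 (93.1), TIMP3 (57.7), TIMP1 (26.1), PLAUR (13.4), MMP2 (10.5) and TIMP2 (7.19), with no overlap between neighbours. In hypoxic BFTC909 it became MMP14 (110), TIMP3 (75.9), PLAU (69.1), MMP2 (62.6) and TIMP1 (34.6) at the top. MMP1, MMP10 and MMP13 were not listed for BFTC909. Of the 9 MMP genes of the chromosome 11 cluster, 5 were listed in the FADU knockdown table and 0 in the BFTC909 table. Each gene in that table had at least 10 reads in 1 or more libraries, so a missing row sets no value of 0. The tables were normalised separately, and levels were not tested across the lines.

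**Figure D1:**
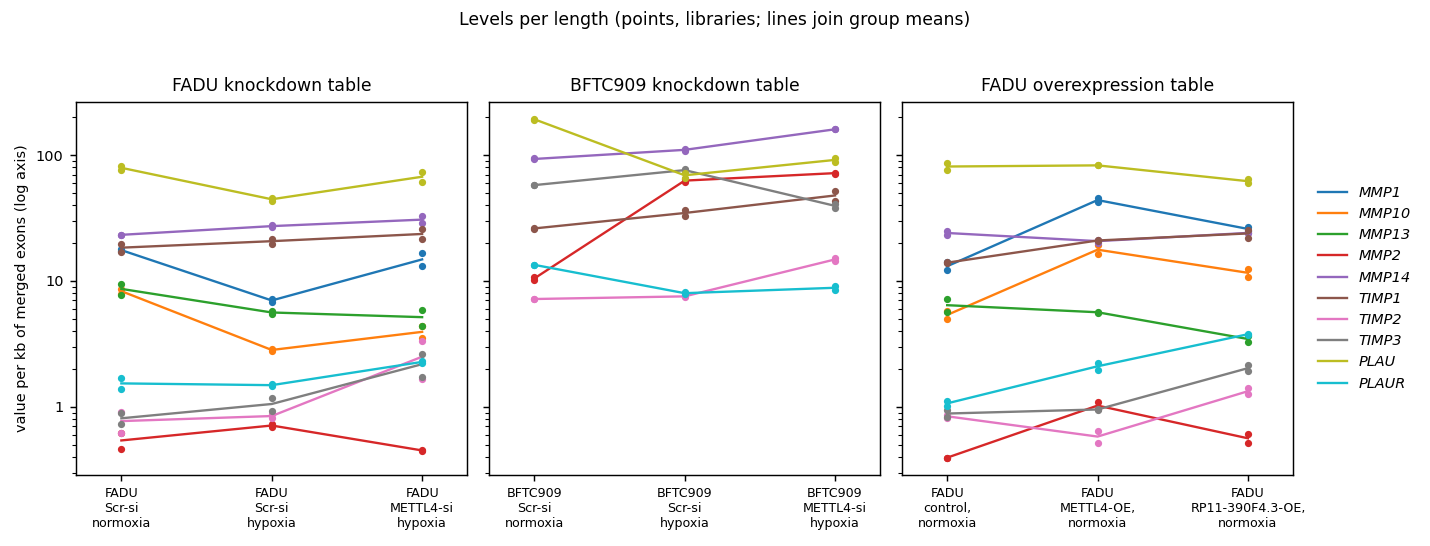
Level of each gene per kilobase of merged exons (TMM CPM per kb, log axis) in each replicated group, with 1 point per library and lines that join the group means, in a panel for each table. PLAU and MMP14 head the order in FADU normoxia (79.2 and 23.2) and in BFTC909 normoxia (192 and 93.1), and MMP1, MMP10 and MMP13 have no points in BFTC909.

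Differences were tested with limma on log2(TMM CPM + 1), and a gene is said to have risen or fallen where it changed by at least 1.3-fold with a Benjamini-Hochberg adjusted p under 0.05 over all genes tested. Fold changes are those of TMM CPM + 1 and are therefore too small for genes with low values. Each gene had 1 estimate of the spread, shared by all groups of a fit. An SE therefore does not show that METTL4-si replicates differed most over genes as a whole. In bulk RNA, fewer cells expressing a gene and less RNA per cell cannot be told apart. In FADU hypoxia, 4 of 10 genes fell (MMP1, MMP10, MMP13 and PLAU), where 9.65% of the 16324 tested genes fell, and 0 of 10 rose, where 9.73% did. An unadjusted p under 0.05 and edgeR on the recovered reads also gave 4 lower and 0 higher. Median centring gave 3 lower, and took the share of higher calls over all genes from 50.2% to 59%. Without the 2 libraries that carried other markers the count was 4 lower and 2 higher, MMP2 at 0.45 and TIMP3 at 0.42 on the log2 scale, in a fit with 1 residual degree of freedom. The median log2 change of the 10 was 0.05, against -0.03 over all genes. In hypoxic FADU, 5 of 10 were higher in the libraries labelled METTL4-si than in Scr-si (MMP1, TIMP2, TIMP3, PLAU and PLAUR; 12.5% of all genes) and 1, MMP2, was lower (15.3% of all genes), with medians of 0.47 and 0.02. Centring took the share of higher calls from 44.9% to 36.8% without changing these calls. Against Scr-si normoxia, those libraries were higher for MMP14, TIMP2, TIMP3 and PLAUR (4 of 10, 8.13% of all genes) and lower for MMP10 and MMP13 (2 of 10, 13.5%).

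In BFTC909 hypoxia, 3 of the 7 listed genes rose (MMP2, TIMP1 and TIMP3), where 17.9% of 14869 tested genes rose, and 2 fell (PLAU and PLAUR), where 18.3% fell. The share of called genes that rose went from 49.6% to 60.4% when the libraries were centred on their medians. METTL4-si in hypoxia was higher than Scr-si for 4 of 7 (MMP14, TIMP1, TIMP2 and PLAU; 13.2% of all genes) and lower for TIMP3 (11.7%), and here centring took the share of higher calls from 53.1% to 37.2% and the calls among the 7 from 5 to 3. Against Scr-si normoxia all 7 differed, 4 higher (MMP2, MMP14, TIMP1 and TIMP2; 24.4% of all genes) and 3 lower (TIMP3, PLAU and PLAUR; 23.2%). Hypoxia and METTL4-si comparisons share the hypoxic Scr-si libraries, so a gene that moved one way in the first and the other way in the second is a description of 3 groups and not of 2 separate results.

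In FADU overexpression clones, METTL4-OE was higher than control for 5 of 10 genes (MMP1, MMP2, MMP10, TIMP1 and PLAUR), where 8% of 15644 genes rose, and lower for TIMP2, where 10.5% fell. RP11-390F4.3-OE was higher for 6 of 10 (MMP1, MMP10, TIMP1, TIMP2, TIMP3 and PLAUR; 16.5% of all genes) and lower for MMP13 and PLAU (12.5%). The 2 comparisons share the control libraries. The medians of the 10 were 0.33 and 0.66 on the log2 scale, against 0.01 over all genes in each comparison. Centring on library medians took the share of higher calls in RP11-390F4.3-OE from 56.9% to 41.2% without changing the calls among the 10. Without replicate 2, which carried breast luminal markers, the 6 higher calls and the fall of MMP13 were kept and that of PLAU was lost. The RP11-390F4.3-OE libraries were higher than METTL4-OE for TIMP2, TIMP3 and PLAUR (3 of 10; 18.4% of all genes, with the share of higher calls going from 58.1% to 43.2% on centring) and lower for MMP1, MMP2, MMP10, MMP13 and PLAU (5 of 10; 13.3%).

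**Figure D2:**
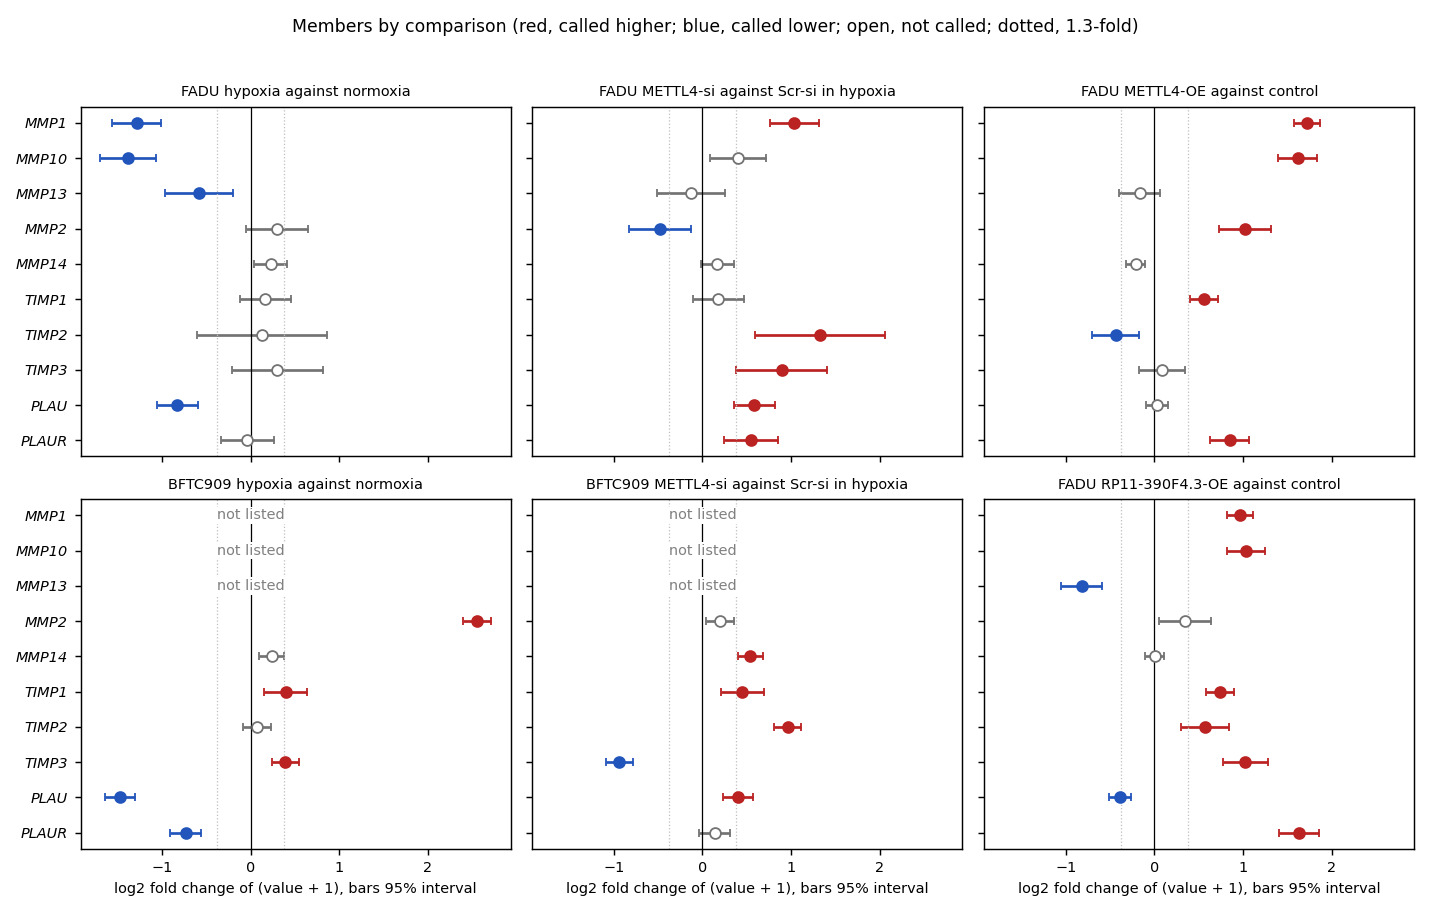
Log2 fold change of each gene for hypoxia and METTL4-si in each line and for METTL4-OE and RP11-390F4.3-OE in FADU, with 95% confidence intervals from limma, red where called higher, blue where called lower and open where not called. PLAU is at -0.82 in FADU hypoxia and at -1.47 in BFTC909 hypoxia, and MMP2 is at 0.30 and 2.56.

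The secreted metalloproteinases of the chromosome 11 cluster are considered first. MMP1, the interstitial collagenase, stood at 47.0 and 49.2 TMM CPM in FADU normoxia, at 19.6 and 18.8 in hypoxia and at 35.9 and 45.3 in hypoxic libraries labelled METTL4-si. The 3 groups did not overlap. Of all tested genes, 73% did not overlap between hypoxia and normoxia and 68.3% between METTL4-si and hypoxic Scr-si. Between METTL4-si and normoxia the share was 65%. It fell by 1.28 on the log2 scale in hypoxia (SE 0.12, limma adjusted p = 0.0011) and was higher by 1.04 in METTL4-si than in hypoxic Scr-si (SE 0.12, adjusted p = 0.0013). Its log2 difference between METTL4-si in hypoxia and Scr-si in normoxia was -0.25, with a 95% interval from -0.53 to 0.03. The first 2 calls held with each library left out in turn, and without the 2 libraries that carried markers of other cells the differences were -1.32 and 1.20. In the overexpression set MMP1 was at 38.4 and 33.3 in control, 124 and 116 in METTL4-OE and 73.4 and 68.3 in RP11-390F4.3-OE. It thus rose 3.29-fold in the first (log2 1.72, SE 0.07, adjusted p = 3.2e-10) and 1.95-fold in the second (log2 0.97, adjusted p = 6.8e-08), and METTL4-OE exceeded RP11-390F4.3-OE by 0.75 on the log2 scale (adjusted p = 6.7e-07).

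MMP10 encodes stromelysin-2, which cuts proteoglycans and fibronectin and can activate procollagenases. It was at 13.9 and 15.3 TMM CPM in FADU normoxia, 4.85 and 5.11 in hypoxia and 6.22 and 7.65 with METTL4-si in hypoxia. The fall in hypoxia was 1.38 on the log2 scale (SE 0.13, limma adjusted p = 0.0013). The difference between METTL4-si and hypoxic Scr-si was 0.40 (95% interval 0.09 to 0.72, adjusted p = 0.055), which did not pass, while edgeR gave an adjusted p of 0.049. The 2 groups did not overlap, which held for 68.3% of all tested genes. METTL4-si libraries remained 0.98 lower than normoxia on the log2 scale (adjusted p = 0.0042). In the overexpression set MMP10 went from 10.1 and 8.79 in control to 33.7 and 28.6 in METTL4-OE and to 21.9 and 18.9 in RP11-390F4.3-OE, which are rises of 3.07-fold (adjusted p = 3.1e-08) and 2.05-fold (adjusted p = 2.0e-06). The promoter printed above for this gene carries both kinds of motif.

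MMP13, collagenase-3, was at 22.0 and 27.0 TMM CPM in FADU normoxia, 15.5 and 16.4 in hypoxia and 12.4 and 16.8 in METTL4-si. The fall of 0.59 in hypoxia (SE 0.16, limma adjusted p = 0.041) was lost when any one of the 4 libraries compared was left out (log2 changes from -0.73 to -0.44) and when the libraries were centred on their medians. The METTL4-si libraries differed from hypoxic Scr-si by -0.13 (95% interval -0.51 to 0.25) and from normoxia by -0.72 (adjusted p = 0.020). Control and METTL4-OE libraries overlapped, at 20.4 and 16.0 against 16.1 and 15.9. RP11-390F4.3-OE was lower at 10.4 and 9.25 (log2 -0.82, SE 0.11, adjusted p = 2.8e-05), a call that held in each other setting and with each library left out. Of the cluster's other genes, MMP3 and MMP7 were listed in FADU, at 0.319 to 1.56 and 0.359 to 1.52 TMM CPM in the knockdown set, and MMP3, stromelysin-1, reached 10.1 in the overexpression set.

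MMP2 is gelatinase A, which degrades basement membrane collagen, and MMP14 is the membrane-anchored enzyme that activates pro-MMP2 at the cell surface together with TIMP2. In BFTC909, MMP2 was at 47.5 and 51.0 TMM CPM in normoxia, 286 and 304 in hypoxia and 341 and 335 in METTL4-si. Its rise in hypoxia was 5.89-fold (log2 2.56, SE 0.07, limma adjusted p = 3.7e-06), and METTL4-si differed from hypoxic Scr-si by 0.20 (95% interval 0.04 to 0.35, adjusted p = 0.058). Among the 7 genes listed there, this was the greatest change in hypoxia. The fibroblast markers rose over the same libraries, and their part in the result was not tested. In FADU the gene was near the bottom of the order, at 2.91 and 2.19 in normoxia, 3.46 and 3.24 in hypoxia and 2.15 and 2.09 in METTL4-si. The hypoxia difference of 0.30 did not pass (adjusted p = 0.18), while METTL4-si was lower than hypoxic Scr-si by 0.48 on the log2 scale (adjusted p = 0.046). That call was lost under edgeR (adjusted p = 0.053) and in 5 of 6 fits with a library left out, in which the value ran from -0.51 to -0.44. METTL4-OE took it from 1.86 and 1.86 to 4.52 and 5.12 (2.03-fold, adjusted p = 4.9e-05), and RP11-390F4.3-OE had 2.86 and 2.44, which was under the 1.3-fold limit.

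MMP14 changed by less than 1.3-fold in 5 of the 6 FADU comparisons. It was at 107 and 108 TMM CPM in normoxia, 123 and 129 in hypoxia and 133 and 151 in METTL4-si, with log2 differences of 0.23 (limma adjusted p = 0.077) and 0.17 (adjusted p = 0.14) between successive groups, and 0.40 between the last and the first (adjusted p = 0.013). In the overexpression set it was at 107 and 115 in control, 98.4 and 93.1 in METTL4-OE and 111 and 112 in RP11-390F4.3-OE. The METTL4-OE difference of -0.21 passed on p (0.0049, adjusted) but not on fold, and the other was 0.00 (95% interval -0.11 to 0.11). In BFTC909 it stood at 426 and 434 in normoxia, 498 and 519 in hypoxia and 742 and 738 in METTL4-si. The hypoxia difference was 1.18-fold, under the limit, and METTL4-si exceeded hypoxic Scr-si 1.46-fold (log2 0.54, SE 0.06, adjusted p = 0.00079), a call kept in each other setting and with each library left out.

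The inhibitors differed from one another. TIMP1, a secreted inhibitor that can also act as a growth factor, was at 28.5 and 24.7 TMM CPM in FADU normoxia, 28.4 and 31.4 in hypoxia and 37.3 and 31.1 in METTL4-si, with overlap between successive groups. The log2 differences were 0.17 (95% interval -0.12 to 0.45) and 0.18 (-0.11 to 0.47). It rose in both overexpression groups, from 20.03 and 20.4 to 30.6 and 30.0 in METTL4-OE (1.48-fold, limma adjusted p = 5.1e-05) and to 32.0 and 36.97 in RP11-390F4.3-OE (1.67-fold, adjusted p = 2.6e-06). These 2 calls held under each alternative. In BFTC909 it went from 37.2 and 38.3 in normoxia to 47.8 and 52.5 in hypoxia and 62.6 and 75.5 in METTL4-si. Both steps passed narrowly, at 1.32-fold (adjusted p = 0.017) and 1.37-fold (adjusted p = 0.015), and were lost in 4 of 6 and 3 of 6 fits with a library left out. The METTL4-si library at 75.5 was the one with the high urothelial marker, and without it the second step was 0.32 in place of 0.45 on the log2 scale. The part of those markers in the result was not tested.

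TIMP2 blocks metalloproteinases and also serves MMP14 in activating pro-MMP2. In FADU it was at 5.69 and 3.89 TMM CPM in normoxia, 5.03 and 5.47 in hypoxia and 20.8 and 10.3 in METTL4-si, and both METTL4-si libraries lay above the other 4. The difference from hypoxic Scr-si was 2.51-fold (log2 1.33, SE 0.31, limma adjusted p = 0.018). Replicate 1, at 20.8, was the library with 532 TMM CPM of breast luminal markers. Without it and normoxia replicate 1 the log2 difference was 0.85, with the lone remaining libraries assumed to vary like the others, and the part of those markers in the result was not tested. In BFTC909 TIMP2 went from 44.3 and 45.0 in normoxia and 46.0 and 47.7 in hypoxia to 90.2 and 93.9 in METTL4-si. METTL4-si was thus 1.95-fold above hypoxic Scr-si (log2 0.96, SE 0.07, adjusted p = 0.00012), and the value was 0.93 without the library that carried the urothelial marker. In the overexpression set the 2 agents went opposite ways, with 5.10 and 5.35 in control, 3.23 and 3.99 in METTL4-OE (0.738-fold, adjusted p = 0.013) and 7.85 and 8.70 in RP11-390F4.3-OE (1.49-fold, adjusted p = 0.0018). The METTL4-OE fall was lost in 2 of 6 fits with a library left out. The direct difference between these groups was 1.012 on the log2 scale (adjusted p = 1.4e-05).

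TIMP3 is the inhibitor that binds to the matrix and also blocks ADAM enzymes. In BFTC909 it was abundant, at 265 and 266 TMM CPM in normoxia, 342 and 356 in hypoxia and 188 and 174 in METTL4-si. It rose 1.31-fold in hypoxia (limma adjusted p = 0.0026), narrowly past the limit. With a library left out this log2 change ran from 0.37 to 0.42, on both sides of the 1.3-fold limit. METTL4-si was 0.521-fold of hypoxic Scr-si (log2 -0.94, SE 0.07, adjusted p = 0.00012) and also below normoxia (log2 -0.55, adjusted p = 0.00042). The summed fibroblast markers were likewise highest in hypoxia, but were higher in METTL4-si than in normoxia, and their part in the result was not tested. In FADU it was at 4.11 and 3.35 in normoxia, 4.27 and 5.43 in hypoxia and 12.2 and 7.92 in METTL4-si. Here METTL4-si was higher than hypoxic Scr-si, by 1.86-fold (log2 0.90, SE 0.22, adjusted p = 0.019). As with TIMP2 the higher library was replicate 1, and without the 2 libraries that carried other markers the log2 difference was 0.62. TIMP3 was at 3.82 and 4.33 in the overexpression control and at 4.42 and 4.35 in METTL4-OE, a difference of 0.09 (95% interval -0.17 to 0.35). RP11-390F4.3-OE was higher at 8.82 and 9.85 (2.04-fold, adjusted p = 9.5e-06).

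PLAU fell in hypoxia in both lines. In FADU it went from 225 and 242 TMM CPM in normoxia to 127 and 135 in hypoxia, and stood at 181 and 216 in METTL4-si. The fall was 0.82 on the log2 scale (SE 0.10, limma adjusted p = 0.0025), and METTL4-si was 0.59 above hypoxic Scr-si (SE 0.10, adjusted p = 0.0051). METTL4-si and normoxia differed by -0.24 (adjusted p = 0.11). In BFTC909 PLAU went from 572 and 562 to 195 and 212 in hypoxia and to 282 and 258 in METTL4-si. The fall there was 1.47 (SE 0.07, adjusted p = 2.0e-05), and METTL4-si was higher by 0.40 (adjusted p = 0.0060), which became 0.31 and passed no more when libraries were centred on their medians. PLAU was at 224 and 254 in the overexpression control and at 244 and 244 in METTL4-OE (log2 0.03, 95% interval -0.09 to 0.16), and was lower in RP11-390F4.3-OE at 190 and 176 (0.767-fold, adjusted p = 9.5e-05). That fall was lost in 2 of 6 fits with a library left out.

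PLAUR, the receptor that holds urokinase at the membrane, was low in FADU, at 6.15 and 7.55 TMM CPM in normoxia, 6.52 and 6.75 in hypoxia and 10.3 and 10.0 in METTL4-si. Hypoxia changed it by -0.03 (95% interval -0.34 to 0.27), and METTL4-si was 1.46-fold above hypoxic Scr-si (limma adjusted p = 0.018). In BFTC909 it fell from 60.0 and 59.7 to 35.2 and 36.1 in hypoxia (log2 -0.73, SE 0.07, adjusted p = 0.00031) and stood at 40.9 and 37.9 in METTL4-si, a step of 0.14 (95% interval -0.03 to 0.31). Its greatest change was in the overexpression set, from 4.53 and 4.98 in control to 9.94 and 8.79 in METTL4-OE (1.80-fold, adjusted p = 2.4e-05) and 16.7 and 17.0 in RP11-390F4.3-OE (3.10-fold, log2 1.63, SE 0.10, adjusted p = 2.9e-08). RP11-390F4.3-OE exceeded METTL4-OE by 0.79 on the log2 scale (adjusted p = 2.6e-05). Receptor and enzyme thus moved apart in RP11-390F4.3-OE, where PLAUR rose and PLAU fell.

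Calls in the FADU METTL4-si comparison depended on single libraries. In each setting named in this paragraph the calls over all genes became fewer as well, so the losses are not particular to these genes. The ranges over all genes are given with the dependence on processing below. The 6 calls among the 10 genes became 1, MMP1, without hypoxia replicate 1 and 2 without hypoxia replicate 2. Against normoxia, the 6 calls became 0 without normoxia replicate 2. In BFTC909 hypoxia the 5 calls became 3 without hypoxia replicate 2, and in BFTC909 METTL4-si the 5 became 3 without hypoxia replicate 1.

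Whether hypoxia acted differently in the lines was tested as the difference of the 2 log2 changes, in 1 limma fit of the 12 knockdown libraries over 13595 genes. For hypoxia, 3 of the 7 genes measured in both lines differed. MMP2 was 2.26 lower in FADU than in BFTC909 (SE 0.14, adjusted p = 1.3e-05; 11% of all genes were called in this direction). PLAU was 0.65 higher (adjusted p = 0.0051) and PLAUR 0.70 higher (adjusted p = 0.0053), meaning that both fell further in BFTC909 (12.8% of all genes). MMP14, TIMP1, TIMP2 and TIMP3 had differences from -0.23 to 0.06 that did not pass. For METTL4-si, TIMP3 was 1.84 higher in FADU (SE 0.23, adjusted p = 0.00061; 9.12% of all genes), having opposite signs in the lines, and MMP2 was 0.67 lower (adjusted p = 0.0075; 14.4% of all genes). These 5 calls held with each of the 12 libraries left out, and the TIMP3 difference was 1.501 without the 3 libraries that carried markers of other cells. Centring on library medians took the share of higher calls in the METTL4-si difference from 38.8% to 49.4% and in the hypoxia difference from 53.8% to 44.1%, with the 5 calls kept. TIMP2, which rose with METTL4-si in each line, had a difference of 0.37 that did not pass.

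**Figure D3:**
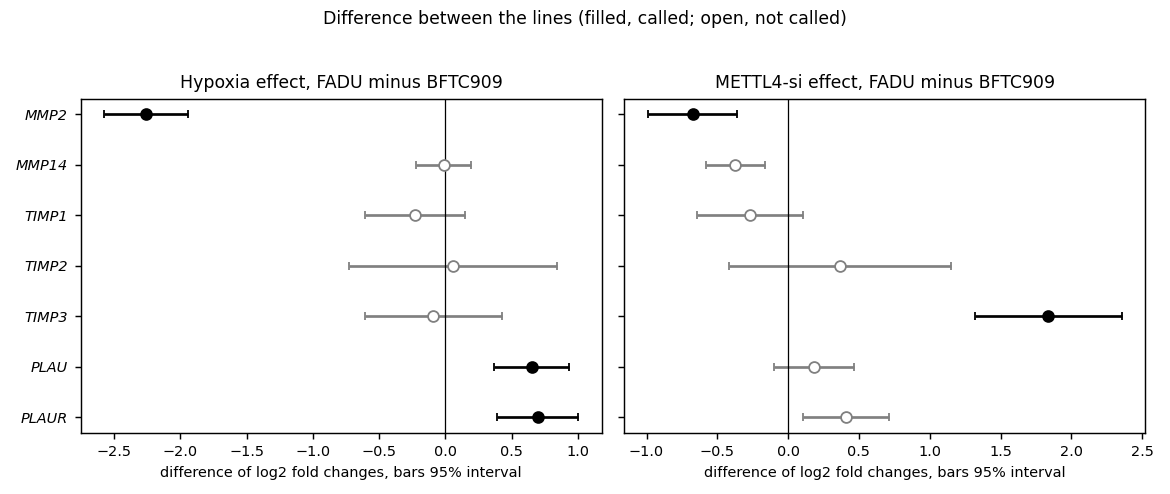
Difference between the lines (FADU minus BFTC909) in the log2 change with hypoxia and with METTL4-si, for the 7 genes listed in both, with 95% confidence intervals from limma. MMP2 lies at -2.26 for hypoxia and TIMP3 at 1.84 for METTL4-si, and 4 genes for hypoxia and 5 for METTL4-si were not called.

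The mutant clones were each compared with the 1 CRISPR control, all in hypoxia, with no replicate check and therefore no test. The clones differed from the control by at least 1.3-fold in the same direction for 4 of the 10 genes, 2 up (MMP2 and MMP13; 8.94% of 15719 genes) and 2 down (TIMP3 and PLAU; 11.8%). MMP13 was at 6.25 TMM CPM in the control, at 30.2 in clone 1 and at 15.3 in clone 2. MMP2 was at 6.04, 16.1 and 10.0, so that both gelatinase A and collagenase-3 RNA were higher in both clones. PLAU was at 169 in the control against 70.4 in clone 1 and 93.3 in clone 2, and TIMP3 at 9.56, 6.53 and 3.51. A single clone passed the fold for MMP1 (32.6 in the control, 62.8 in clone 1 and 31.8 in clone 2), for MMP10 (7.13, 18.7 and 9.40) and for TIMP2 (11.1, 11.6 and 6.38). PLAUR and MMP14 passed in clone 2, at log2 ratios of -1.05 and -0.39, and TIMP1 in neither. The shares over all genes given above hold for passing in both clones and not for a single clone, for which no share is given here. METTL4 RNA was at 12.5, 15.9 and 10.6 in control, clone 1 and clone 2, and an edited catalytic site need not change it.

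**Figure D4:**
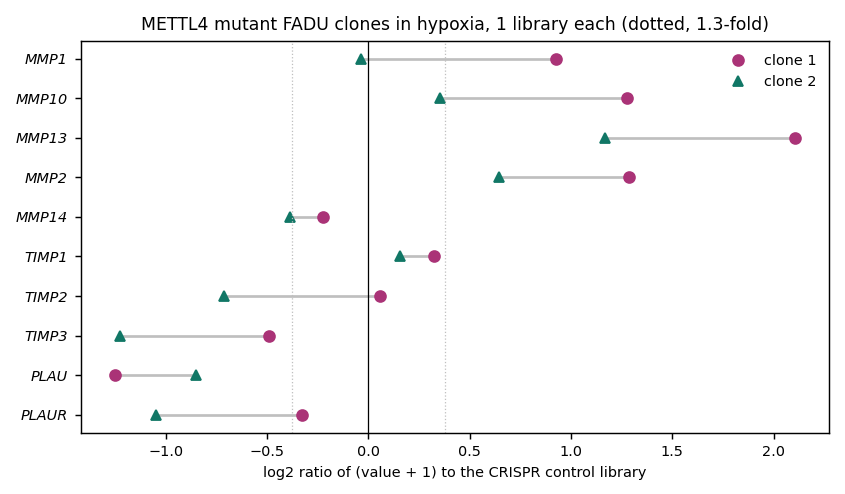
Log2 ratio of each gene in each METTL4 mutant clone to the 1 CRISPR control library, all in hypoxia, 1 point per clone and no error since each clone is 1 library. MMP13 lies at 2.11 and 1.17 and PLAU at -1.25 and -0.85, while MMP1 lies at 0.93 and -0.04.

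The other genes of pericellular proteolysis were counted in 7 lists of 100 genes in all. In FADU hypoxia 13 of 66 tested rose and 16 fell (9.73% and 9.65% over all genes), and 5 of 8 other plasminogen activation genes rose against 1 that fell. ADAM12, a membrane metalloprotease, and LRP1, the receptor that clears protease and inhibitor complexes, rose by 1.31 and 0.97 on the log2 scale, and MMP16, TMPRSS4 and CTSD (cathepsin D) fell by 1.53, 1.41 and 1.02. With METTL4-si in hypoxic FADU, 23 of 66 were higher and 11 lower than Scr-si (12.5% and 15.3% over all genes), and the plasminogen list had 1 higher and 6 lower of 8. ADAM12 was lower by 1.71 and ENO1, a glycolytic enzyme that also binds plasminogen, by 1.32, while MMP16, TMPRSS4 and CTSD were higher by 2.04, 1.72 and 1.37. Each of these 5 comes from a contrast that shares the hypoxic Scr-si libraries with the first. The METTL4-si libraries differed from each other for CTSD (mean 242 TMM CPM, SD 115) and for MMP16 (mean 16.7, SD 4.72). Replicate 1 of that group carried markers of other cells, and their part in these values was not tested.

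In BFTC909 hypoxia 25 of 57 rose and 5 fell (17.9% and 18.3% over all genes), including 6 of 8 plasminogen activation genes and 8 of 13 cathepsins and cystatins that rose. HTRA1, a secreted serine protease, LRP1 and FAP rose by 1.77, 1.31 and 1.23 on the log2 scale. FAP also belongs to the fibroblast markers, whose sum rose over the same libraries, and their part in this result was not tested. Changes of -0.89, -0.79 and -0.75 were those of FURIN, which activates pro-MMP14, of TFPI2 and of CD44. With METTL4-si 20 of 57 were higher and 11 lower (13.2% and 11.7%). PRSS23 and ADAMTS1 were lower by 1.21 and 0.98, and ADAMTS14, MMP17 and CD9 were higher by 2.88, 1.19 and 1.10. Against normoxia, METTL4-si in hypoxia had 32 of 57 higher and 7 lower (24.4% and 23.2%), with 11 of 13 cathepsins and cystatins higher, and in FADU 15 of 66 higher and 3 lower (8.13% and 13.5%).

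In METTL4-OE 16 of 62 were higher and 18 lower than control (8% and 10.5% over all genes). ADAM12 rose by 2.15 on the log2 scale and ADAM19 by 1.63, while TMPRSS4, PLAT (tissue plasminogen activator) and CTSH had changes of -1.51, -1.49 and -1.25. In RP11-390F4.3-OE 17 of 62 were higher and 5 lower (16.5% and 12.5%). ADAM19 and ADAM8 rose by 2.11 and 1.45, and HTRA1, ADAMTS17 and PCSK7 had changes of -1.08, -0.83 and -0.62. Between the 2 agents, RP11-390F4.3-OE was higher for 23 of 62 and lower for 10 (18.4% and 13.3%), with 8 of 15 cathepsins and cystatins higher and 0 lower. In the mutant clones 3 of 63 listed genes were higher in both clones and 24 lower (8.94% and 11.8% over all genes), among them 7 of 16 cathepsins and cystatins and 5 of 8 plasminogen activation genes.

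The gene whose log2 values ran most like each member was sought over the 18 replicated libraries and 13348 genes, after each table's mean was subtracted, for the 7 members tested in each table. Pearson correlations were 0.98 for MMP2 with FYN, 0.96 for MMP14 with LPCAT4, 0.93 for TIMP1 with TGFB1, 0.93 for TIMP2 with VPS9D1, 0.89 for TIMP3 with UGCG, 0.98 for PLAU with PNPT1 and 0.95 for PLAUR with FHL1. Libraries of a table share their line and processing and fall into 9 groups, so these values are a description and carry no test.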

How the data were processed

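RNA was prepared with a stranded ribosomal-depletion kit (Kapa HyperPrep with RiboErase) and sequenced as paired ends on a NextSeq instrument. Per the study's methods and the submitters' processing notes, reads were trimmed with Trim Galore, aligned to hg19 with HISAT2, counted per gene with HTSeq and normalised by TMM in edgeR, with versions not given in the sources used here. The signal values used are the TMM-normalised CPM values as deposited by the authors in 4 tables, 1 for each experiment. Tables of the authors' own comparisons (fold change, mean level, F and p) were not used. The replicated tables list genes with at least 10 reads in 1 or more libraries and the mutant table genes with at least 10 in each, where rows of unassigned reads (40.9 to 43.0% of a column) were left out. Values were not rescaled after that. Gene values summed to 559295 to 608643 in the mutant libraries and to 941679 to 1045783 in the replicated ones. Levels in the mutant set therefore do not compare with those of the other sets.

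Symbols were matched to gene identifiers, and 2 overexpression columns with another name were taken as RP11-390F4.3-OE because that group alone remained. Genes at 1 TMM CPM or more in at least 2 libraries were tested with limma 3.58.1 (trended empirical Bayes, R 4.3.3) on log2(value + 1) over the 6 libraries of a table, or over 12 for differences between the lines, and called at 1.3-fold with an adjusted p under 0.05. The fits were tested on simulated data, and no result of that is given here. Alternatives were pseudocounts of 0.1 and 5, no filter, a mean of at least 5, median centring, edgeR 4.0.16 on whole reads (100% of the replicated tables' values were whole within 0.1 read), a replicate block, unadjusted p and each library left out. Replicates differed by more than sampling noise (chi-square per degree of freedom 2.11 to 28.9). The greatest values were those of METTL4-si in FADU (28.9) and in BFTC909 (23.9). The fits gave each gene 1 spread for all groups, so intervals for METTL4-si may be too narrow and those for hypoxia too wide. All 10 genes were named in each comparison. From 7 lists of related genes, the text names up to 3 called genes in each direction, taken by the greatest change among those with a mean of at least 5 and groups that did not overlap. A gene that this rule picks is not reported here. The members, lists and tests were chosen with earlier results of these data known.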

Additional observations from a re-analysis of the deposited data

Results flagged for a closer look

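The results below are those whose change differed between FADU and BFTC909 in a test of the difference itself, by limma over the 12 knockdown libraries. MMP2 changed by 0.30 in FADU hypoxia and by 2.56 in BFTC909 hypoxia on the log2 scale, a difference of -2.26. PLAU fell in both lines, and the fall was the greater in BFTC909, with a difference of 0.65. PLAUR changed by -0.03 in FADU and by -0.73 in BFTC909, a difference of 0.70. With METTL4-si in hypoxia, MMP2 changed by -0.48 in FADU and by 0.20 in BFTC909, a difference of -0.675. TIMP3 was higher by 0.90 in FADU and lower in BFTC909, at -0.94, a difference of 1.84. The lines were normalised in separate tables, so line and table cannot be told apart.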

How the results depend on the processing

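Of 1471 repeated values for single genes, 1373 kept their direction and their side of the threshold, 58 lost the call, 22 gained one and 18 changed sign, all 18 among differences that were not called. With a library left out, the calls among the 10 genes ran from 1 to 7 for FADU METTL4-si against hypoxic Scr-si and from 0 to 7 against normoxia. They ran from 3 to 5 for BFTC909 hypoxia and for BFTC909 METTL4-si, and from 2 to 4 for the METTL4-si difference between the lines. Median centring left 3 calls for BFTC909 METTL4-si. In the mutant set, the genes past the fold depended on which clone was used, and the share of all genes past it in a single clone is not given here.

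Over all genes, leaving out a library gave 706 to 4243 calls in FADU hypoxia (3163 with each library), 1976 to 5675 in FADU METTL4-si against Scr-si (4534), 758 to 4671 against normoxia (3531), 3435 to 5951 in BFTC909 hypoxia (5382), 1816 to 4978 in BFTC909 METTL4-si (3704), 2015 to 3770 for the hypoxia difference between the lines (3235) and 1973 to 3680 for the METTL4-si difference (3193). A pseudocount of 5 gave 1621 calls in METTL4-OE, 2607 in RP11-390F4.3-OE and 2934 between them, and a mean of at least 5 gave 1922, 2964 and 3232, against 2894, 4539 and 4950. With a library left out the counts went up as well as down. Leaving out a library changes the samples fitted and the mean limit the genes fitted. What moved the counts was not tested in any of these settings.

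The sign changes were as follows, as log2 values. Median centring gave 0.013 for PLAUR in FADU hypoxia and -0.077 for MMP14 in RP11-390F4.3-OE. Leaving out a library gave -0.10 to 0.35 for TIMP2 and -0.16 to 0.094 for PLAUR in FADU hypoxia, -0.33 to 0.072 for MMP13 in FADU METTL4-si, -0.057 to 0.12 for PLAU in METTL4-OE and -0.0503 to 0.0565 for MMP14 in RP11-390F4.3-OE. For the hypoxia difference between the lines it gave -0.047 to 0.022 for MMP14, -0.17 to 0.29 for TIMP2 and -0.23 to 0.0525 for TIMP3, and for the METTL4-si difference -0.11 to 0.84 for TIMP2. Without the libraries that carried markers of other cells, MMP13 in FADU METTL4-si was at 0.072, TIMP3 in the hypoxia difference at 0.026 and TIMP2 in the METTL4-si difference at -0.079. In FADU that setting leaves 1 residual degree of freedom, so its p-values are not given.

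Groups share replicate numbers, but nothing says that a number marks a common culture, and deviations of same-numbered libraries correlated at -0.07 to 0.15, except at 0.65 for FADU normoxia with METTL4-si, whose first replicates both carried other markers. With the replicate number as a block, 7 in place of 6 of the 10 genes were called in FADU METTL4-si, the gain being MMP10, and 4629 in place of 4534 of all genes. The block changed no other call among the 10 genes.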
